A study of Mus musculus with 26 samples.

Results

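RNA of NIH3T3 cells, the widely used immortal fibroblast line from mouse embryos, was compared between cells exposed to H2O2 for 7 h and their control. The comparison rests on 4 polyA-selected RNA libraries, 2 per group, out of 26 libraries in the series, and takes in every gene of the deposited expected-count table. Of its 20430 gene symbols, 13256 passed the filter on low counts and were tested. The series also holds H2O2 for 2 h and KCl for 7 h, set against the same control, and ribosome footprints (the mRNA fragments covered by ribosomes) of the same conditions. All groups were unmodified NIH3T3 cells, and the labels describe the control only as the control for H2O2 and KCl. The sources used here do not give the H2O2 concentration. The labels do not say whether replicates were separate cultures, so the p-values below measure only the spread between these samples, which may be technical.

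Hydrogen peroxide enters cells, oxidises thiols and damages DNA, and cells answer it with several transcription programmes. NRF2, freed when its inhibitor KEAP1 is oxidised, binds antioxidant response elements and drives genes of glutathione and thioredoxin metabolism. p53, stabilised after DNA damage, drives genes that stop the cell cycle, feed back on p53 itself or promote cell death. ATF4, translated when the initiation factor eIF2 is phosphorylated, drives genes of amino acid supply in what is called the integrated stress response (ISR). Genes of mitosis are repressed through CHR and CCAAT elements of their promoters when p53 and p21 act on the cell cycle.

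The promoters below are examples, picked among the most changed called genes of mitosis, NRF2 and the ISR because their windows hold such elements. Not all members of those groups carry them, and the shares are given below. Each window spans 250 bases before to 50 bases after the start of a RefSeq transcript (GRCm38.p6) and is written 5′ to 3′ on the strand of the gene. Capitals mark the elements searched on either strand: the CHR (TTTGAA) and the CCAAT box (CCAAT) in genes of mitosis, the core of the antioxidant response element (TGACNNNGC) in NRF2 targets, and the C/EBP-ATF element (TGATGNAAT) in ISR targets. The antioxidant and C/EBP-ATF elements shown lie on the opposite strand and therefore read as their reverse complement.
Plk1, chr7:122159185-122159484, plus strand: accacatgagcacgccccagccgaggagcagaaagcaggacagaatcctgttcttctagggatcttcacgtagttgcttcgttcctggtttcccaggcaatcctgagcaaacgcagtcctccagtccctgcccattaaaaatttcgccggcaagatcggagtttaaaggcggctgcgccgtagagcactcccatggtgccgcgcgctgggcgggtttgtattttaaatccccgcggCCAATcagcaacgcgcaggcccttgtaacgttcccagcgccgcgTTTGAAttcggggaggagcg
Cenpf, chr1:189688037-189688336, minus strand: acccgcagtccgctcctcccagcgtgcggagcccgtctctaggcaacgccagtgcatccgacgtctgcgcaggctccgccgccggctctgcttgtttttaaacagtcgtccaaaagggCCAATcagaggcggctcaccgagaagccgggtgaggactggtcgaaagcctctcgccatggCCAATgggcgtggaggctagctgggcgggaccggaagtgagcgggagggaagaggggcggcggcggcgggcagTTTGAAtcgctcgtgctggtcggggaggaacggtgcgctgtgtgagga
Prc1, chr7:80294201-80294500, plus strand: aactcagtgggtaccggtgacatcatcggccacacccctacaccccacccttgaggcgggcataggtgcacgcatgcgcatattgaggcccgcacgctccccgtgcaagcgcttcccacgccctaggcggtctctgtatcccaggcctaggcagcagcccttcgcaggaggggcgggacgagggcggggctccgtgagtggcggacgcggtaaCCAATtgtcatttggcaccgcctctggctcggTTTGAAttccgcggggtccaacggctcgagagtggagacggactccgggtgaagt
Srxn1, chr2:152105274-152105573, plus strand: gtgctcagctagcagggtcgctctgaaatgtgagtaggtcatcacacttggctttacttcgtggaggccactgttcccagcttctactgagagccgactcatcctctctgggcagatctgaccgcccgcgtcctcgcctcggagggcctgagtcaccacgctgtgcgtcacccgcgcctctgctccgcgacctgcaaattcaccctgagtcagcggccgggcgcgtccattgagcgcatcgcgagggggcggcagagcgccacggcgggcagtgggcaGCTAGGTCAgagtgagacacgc
Txnrd1, chr10:82858956-82859255, plus strand: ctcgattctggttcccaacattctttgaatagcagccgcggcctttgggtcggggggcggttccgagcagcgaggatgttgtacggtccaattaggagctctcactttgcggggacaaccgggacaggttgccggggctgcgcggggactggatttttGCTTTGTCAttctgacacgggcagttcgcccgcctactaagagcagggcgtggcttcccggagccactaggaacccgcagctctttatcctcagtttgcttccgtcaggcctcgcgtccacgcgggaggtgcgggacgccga
Fgf21, chr7:45615441-45615740, minus strand: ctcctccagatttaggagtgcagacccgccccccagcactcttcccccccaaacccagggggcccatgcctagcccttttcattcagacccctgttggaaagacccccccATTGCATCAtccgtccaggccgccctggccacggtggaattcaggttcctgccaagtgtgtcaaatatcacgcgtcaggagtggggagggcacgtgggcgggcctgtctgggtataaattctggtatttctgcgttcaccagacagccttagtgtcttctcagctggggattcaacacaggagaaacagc
Gars, chr6:55037751-55038050, plus strand: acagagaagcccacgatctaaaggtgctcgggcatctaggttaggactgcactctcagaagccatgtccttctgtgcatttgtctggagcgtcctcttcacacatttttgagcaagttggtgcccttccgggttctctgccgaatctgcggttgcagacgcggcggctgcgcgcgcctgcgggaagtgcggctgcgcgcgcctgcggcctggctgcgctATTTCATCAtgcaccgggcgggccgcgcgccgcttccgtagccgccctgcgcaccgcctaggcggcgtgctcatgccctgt

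Windows were found for 10236 of the genes tested. A CHR was present in 29 of 40 mitosis promoters (72.5%), in 6 of 35 DNA replication promoters (17.1%) and in 14% of all those windows. Among genes that fell by at least 1 log2 unit at 7 h the share was 20.5% (131 of 638), and among those that rose as far it was 14% (231 of 1654). The 40 CHR matches in the mitosis promoters lay at a median of -9.5 bases from the start, with quartiles of -40.2 and 13.5 bases. Matches were counted in each window, so an element in overlapping windows of a gene counts more than once, as for Prc1 at -5 and -30 bases. A CCAAT box was present in 30 of 40 mitosis promoters (75%), in 22 of 35 DNA replication promoters (62.9%) and in 42.9% of all windows. It was also present in 13 of 13 cholesterol synthesis promoters and 16 of 17 of the unfolded protein response (94.1%). Clock genes had it in 11 of 14 (78.6%), and the p53 targets of arrest, which rose, in 8 of 12 (66.7%). Other lists lay below all windows, such as autophagy and lysosome genes (3 of 16, 18.8%). A high share was thus not particular to genes that fell. The E2F element (TTCCCGC) was found in 1 of 40 mitosis promoters, 14 of 35 replication promoters (40%), 11 of 20 promoters of DNA repair genes (55%) and 9.6% of all windows. The antioxidant core was found in 4 of 9 promoters of the glutathione and thioredoxin group (44.4%), in 3 of 10 of the heme and quinone group (30%) and in 17% of all windows. Shares of the same order were found in other lists: 38.5% (5 of 13) in the ISR genes of amino acid and folate metabolism, 36.8% (7 of 19) in immediate early genes, 36.4% (4 of 11) in G1 regulators and 33.3% (5 of 15) in splicing kinases and SR proteins. The C/EBP-ATF element was present in 2 of 13 promoters of ISR regulators (15.4%), 3 of 12 of the aminoacyl-tRNA synthetases (25%), 1 of 13 of the ISR genes of amino acid and folate metabolism (7.69%) and 0.518% of all windows. A match describes these letters in this window and not the binding of a factor.

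The 4 RNA libraries held 45244430 and 35775040 counts in the control and 31669870 and 24606586 at 7 h, and replicates correlated at 0.994 to 0.996 in log2 CPM (CPM, counts scaled to a common library size after TMM normalization) over the groups of the fit. Levels below are CPM of replicates 1 and 2 in that order, changes are log2 fold changes of 7 h minus control, and calls are those of edgeR's quasi-likelihood test with a Benjamini-Hochberg adjusted p below 0.05. The sources used here do not say whether the counting used the strand of the reads, so genes that overlap a neighbour may hold some of its reads.

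Most of the transcriptome differed after 7 h. Of 13256 genes, 5227 were higher (39.4%) and 4120 lower (31.1%), and the median gene lay at 0.0753. In 6260 genes both 7 h libraries lay above both control libraries, and in 5155 both lay below. A lack of overlap was thus common to most genes. List counts below are read against these shares of calls, and footprint counts against 17.2% higher and 10.6% lower of 10545 genes tested. A rise of at least 1 log2 unit was seen in 2172 genes (16.4%) and a fall of that size in 919 (6.93%). The plot of all genes shows that the large changes were mostly rises: 316 genes rose by at least 5 log2 units, and 63 of these stood at 10 CPM or more in both 7 h libraries. A control near zero lies behind most of the steepest of them, since 212 of the 316 had 3 or fewer counts over both control libraries and their fold change depends on the prior count. Without a limit on the size of the change, 194 genes tested had no control count, and those among them that rose so far are part of the 212. Of the 194 genes, 134 were called higher and 29 of those reached 1 CPM in both 7 h libraries. These genes passed the filter through a stressed group, so the number says nothing about genes in general. The 8 fibroblast markers were present in all 4 libraries and 8 of 8 were called lower, their summed level going from 15040 and 15410 CPM to 7375 and 7414 CPM. In bulk RNA, fewer cells of a type and less RNA per cell cannot be told apart.

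**Figure D1:**
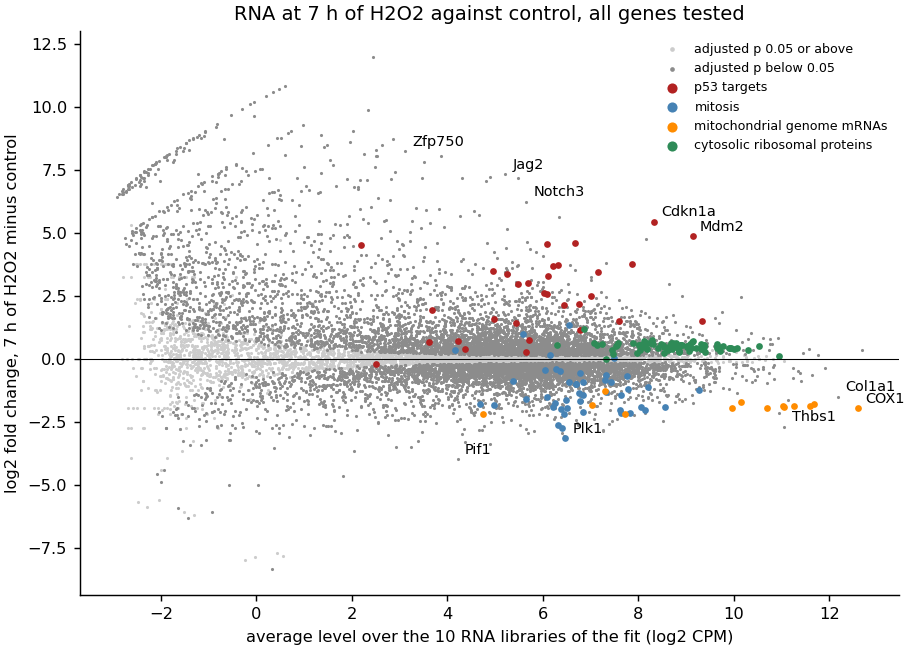
Log2 fold change of RNA at 7 h of H2O2 against control (vertical axis) over the average level in log2 CPM of the 10 RNA libraries of the fit (horizontal axis), with 1 point per gene for all 13256 genes tested. Light grey points had an adjusted p of 0.05 or above, dark grey points lay below it, and 4 gene groups are coloured: the p53 targets lie mostly above zero, mitosis genes and mitochondrial genome mRNAs mostly below, and ribosomal proteins in a narrow band above zero.

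The p53 targets that stop the cell cycle or feed back on p53 rose together. Of 14 such genes 14 were called higher, with a median of 2.96, and 12 rose by at least 1 log2 unit. Cdkn1a (chr17:29090979-29100722), which encodes the kinase inhibitor p21, stood at 31.4 and 33.5 CPM in the control and 1397 and 1429 CPM at 7 h. The 7 h libraries lay far above both control libraries, a 43.6-fold rise (log2 5.45, SE 0.0773, adjusted p = 2.85e-15). Mdm2 (chr10:117688875-117710758), the ubiquitin ligase that degrades p53, went from 77.7 and 76.2 to 2119 and 2413 CPM, again without overlap, a 29.4-fold rise (log2 4.88, SE 0.07699, adjusted p = 5.15e-15). Both had begun to rise earlier: at 2 h Cdkn1a stood at 105 and 104 CPM and Mdm2 at 261 and 260.2 CPM.

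Other members of the arrest group differed in when they rose. Ccng1, which encodes cyclin G1, was at 68.03 and 67.2 CPM in the control, 70.4 and 73.1 CPM at 2 h and 909 and 932 CPM at 7 h. Its 2 h libraries lay within reach of the control (adjusted p = 0.288), and its rise of 3.77 log2 units came between 2 h and 7 h. Trp53inp1, a partner of p53 in cell death, also rose mainly after 2 h, from 11.7 and 11.4 through 16.5 and 17.7 to 253 and 296 CPM (log2 4.57). Btg2, an antiproliferative factor, had instead covered most of its rise by 2 h (16.6 and 14.7 to 124 and 134 CPM) and reached 196 and 214 CPM at 7 h. Sesn2, an inhibitor of mTORC1 signalling, stood at 188 and 173 CPM at 2 h and 182 and 175 CPM at 7 h against 12.2 and 14.5 CPM in the control, with no call between the times (adjusted p = 0.8398). The kinase genes Plk2 and Plk3 had passed their peak: their 7 h levels stood -1.62 and -1.17 log2 units from those at 2 h and still 1.52 and 1.42 above the control. The smallest rise of the group was that of Sesn1, at 0.26.

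The death and repair targets of p53 rose as well, with 16 of 17 called higher, 13 of them by at least 1 log2 unit, and a median of 2.18. Pmaip1, which encodes the BH3-only protein NOXA, went from 12.97 and 13.5 to 294 and 346 CPM (log2 4.597, SE 0.124). Fas, the death receptor, went from 10.1 and 9.49 to 108 and 115 CPM (log2 3.51), and Perp, a desmosomal effector of p53, from 49.5 and 43.7 to 481 and 530.4 CPM (log2 3.44). In all 3 genes the 7 h libraries lay above both control libraries, as in 6260 of all 13256 genes. Eda2r, another receptor of the TNF family, rose from 0.931 and 0.472 to 16.3 and 17.2 CPM. Members with smaller rises were Bbc3, which encodes PUMA (7.94 and 8.67 to 31.3 and 32.6 CPM, log2 1.95), and Bax, the pore former of the mitochondrial outer membrane (85.4 and 92.5 to 206 and 191 CPM, log2 1.16). The member not called was Ddb2, a nucleotide excision repair factor, at 6.66 and 5.95 CPM in the control and 5.31 and 5.58 CPM at 7 h (log2 -0.22, adjusted p = 0.161). The same groups at 7 h of KCl, against the same control, had medians of 0.22 and -0.102, where Cdkn1a stood at 11.3 and 12.98 CPM. Footprints gave medians of 3.29 and 2.300, with 13 of 14 and 14 of 17 genes called higher, read against 17.2% of the 10545 genes tested in footprints.

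**Figure D2:**
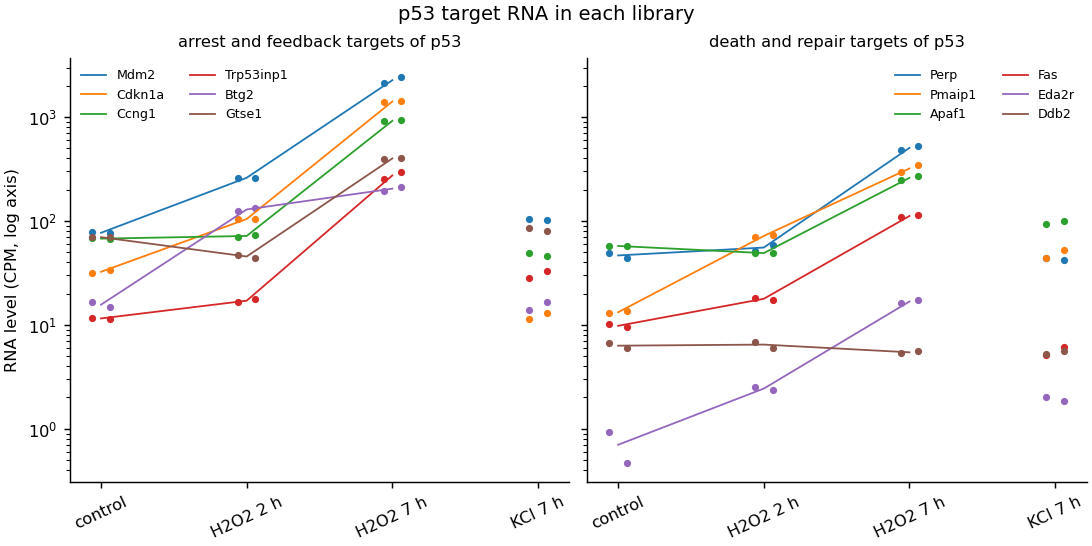
RNA level in CPM on a log axis for p53 targets in each library of the control, H2O2 for 2 h, H2O2 for 7 h and KCl for 7 h; points are libraries and lines join the means of the control and H2O2 groups. Cdkn1a and Mdm2 rose at 2 h and again at 7 h, Ccng1 was not called at 2 h and rose by 7 h, and Ddb2 was not called.

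Zfp750, Sec14l5, Matn4 and Jag2 led the 15 largest rises. The set took in called genes without overlap between groups whose mean level over the 10 RNA libraries was 3 log2 CPM or more. That mean includes the 7 h libraries, so genes scarce in the control could pass through their 7 h level. Control counts were 5 and 7 for Zfp750, 9 and 14 for Sec14l5 and 138 and 124 for Notch3. The size of the steepest rises thus rests on few control counts. Zfp750 (chr11:121510976-121519342), a zinc finger regulator of epidermal differentiation, was at 0.103 and 0.183 CPM in the control, 0.285 and 0.0887 CPM at 2 h and 44.98 and 41.9 CPM at 7 h. It was thus near zero in the control and at 2 h, and rose 304-fold over the control at 7 h (log2 8.25, SE 0.202, adjusted p = 2.61e-13). Sec14l5 went from 0.186 and 0.367 to 73.4 and 71.5 CPM (log2 8.07), and Matn4, a matrilin of the extracellular matrix, from 0.248 and 0.2097 to 51.6 and 54.3 CPM (log2 7.82). Tbc1d8, Ddit4l, Kcnj4, Celf5, Palm3, Slc37a2, Sytl1 and Fam212b rose by 5.88 to 7.25 log2 units. Ddit4l, a relative of the mTORC1 inhibitor DDIT4, reached 90.1 and 92.5 CPM from 0.5998 and 0.629 CPM and also stood at 6.75 and 5.92 CPM after 7 h of KCl. Of the 15 genes, 9 were the downstream gene of a pair in the authors' table of neighbouring genes, and 0 of these 9 were called as reached by transcription from the upstream gene in any of the 10 RNA libraries of the H2O2 and KCl experiment. The authors' estimate of such transcription (read-in), a ratio deposited without its formula, was 0.201 and 0.245 for Zfp750 at 7 h against 0 in both control libraries. The other 6 genes were in no pair and could not be called.

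A Notch receptor and a Notch ligand were in that set. Notch signalling works between neighbouring cells, through ligands such as the Jagged proteins that free the intracellular domain of the receptor. Jag2 (chr12:112907803-112929812) rose from 1.096 and 1.05 CPM to 173 and 179 CPM, 163-fold (log2 7.35, SE 0.101, adjusted p = 2.57e-15). Notch3 (chr17:32120820-32166896) rose from 2.85 and 3.25 CPM to 232 and 231 CPM, 76.2-fold (log2 6.25, SE 0.0978, adjusted p = 5.15e-15). Their 2 h libraries lay between the groups, at 5.52 and 4.67 CPM for Jag2 and 8.66 and 9.96 CPM for Notch3. Footprints rose with the RNA, from 0.978 and 1.099 to 160.3 and 151 CPM for Jag2 and from 4.16 and 3.57 to 269.9 and 258 CPM for Notch3. Notch1 and Hes1 were looked up after these values were seen: Notch1 went from 42.4 and 43.5 to 215 and 226 CPM (log2 2.36), and Hes1, a common Notch target, had a change of 0.86.

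The set also held Evpl and Zfp750, genes best known from the epidermis, in a fibroblast line. Evpl (chr11:116220559-116238165), which encodes the cornified envelope protein envoplakin, rose from 1.45 and 1.47 CPM to 205 and 216 CPM, 144-fold (log2 7.17, SE 0.0964, adjusted p = 2.57e-15), and its footprints from 0 and 0.824 to 147 and 183 CPM. Among the 10 epithelial and keratinocyte markers, which summed to 10.4 and 9.23 CPM in the control and 37.8 and 36.0 CPM at 7 h, 8 were tested, 3 were higher and 2 lower. Grhl3, an epidermal transcription factor, made most of that sum at 7 h, with 29.3 and 28.1 CPM against 0.06205 and 0.157 CPM in the control. Krt5 had 1 and 0 counts in the control libraries and 2.06 and 1.94 CPM at 7 h. Other defining markers went the opposite way, with Krt18 at 8.52 and 7.31 and then 4.12 and 4.55 CPM (log2 -0.88) and Trp63 at 0.476 and 0.577 and then 0.152 and 0 CPM (log2 -2.55), and Esrp1 had no count at 7 h. Markers of other lineages moved too: the haematopoietic sum went from 13.0 and 11.5 to 67.1 and 70.1 CPM, carried by Cd14 (7.71 and 6.26 to 42.98 and 46.9 CPM) and Cd68 (5.25 and 5.08 to 23.9 and 22.7 CPM), with Adgre1 at 0. The muscle sum rose from 0.372 and 0.210 to 7.22 and 8.43 CPM, led by Des (log2 4.61), the endothelial sum from 1.68 and 0.970 to 4.52 and 3.84 CPM, led by Tek (log2 3.09), and the neuronal sum stood at 53.03 and 53.75 CPM and then at 53.62 and 53.21 CPM, with Tubb3 higher (log2 1.22) and Stmn2 lower (log2 -0.61). Their part in the rises above was not tested.

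Tent4b was the last of the 15, and its value depends on how the table names the gene. It had 0 and 81 counts in the control and 1590 and 1323 counts at 7 h (log2 5.72), while the row under its older symbol Papd5 held 2900 and 2276 counts and then 841 and 672. With both rows summed the change was 0.33. Its footprints were not called (adjusted p = 0.467).

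The NRF2 targets of glutathione and thioredoxin metabolism rose, with 12 of 13 called higher, 1 lower and a median of 0.97. Slc7a11, the cystine transporter that feeds glutathione synthesis, went from 8.501 and 9.303 CPM to 144 and 159 CPM (log2 4.09, SE 0.117, adjusted p = 1.01e-12). It already stood at 132 and 146 CPM at 2 h and did not pass the test between the times (adjusted p = 0.265). Srxn1, which repairs overoxidised peroxiredoxins and whose promoter is printed above, went from 64.4 and 61.3 through 218 and 193 to 246 and 244 CPM (log2 1.96). Txnrd1, thioredoxin reductase, whose promoter is also printed above, rose from 392 and 423 to 1443 and 1569 CPM (log2 1.88), and Gclc, the catalytic subunit of glutamate-cysteine ligase, by 1.33. Gsta1, a glutathione transferase with close paralogs whose reads may be split, showed the steepest rise (0.228 and 0.236 to 6.73 and 6.92 CPM, log2 4.86). At the low end were the peroxiredoxin Prdx1 (log2 0.27) and thioredoxin itself, Txn1 (log2 0.23), and Gstm1 fell (log2 -0.36).

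Of the NRF2 targets of heme, quinone and NADPH metabolism 11 of 14 rose and 2 fell (median 0.74). Hmox1, heme oxygenase, was at 98.4 and 88.9 CPM in the control, 943 and 857 CPM at 2 h and 678 and 786 CPM at 7 h, so it was -0.298 log2 units from its 2 h level (adjusted p = 0.00458) and 2.97 above the control. Nqo1, a quinone reductase, rose later: it stood at 51.4 and 46.7 CPM in the control, 53.5 and 49.99 CPM at 2 h and 219.5 and 189.8 CPM at 7 h (log2 2.06; 7 h minus 2 h 1.98). The ferritin chains Fth1 and Ftl1 rose by 1.41 and 0.798, and Fech, which inserts iron to form heme, fell (log2 -0.56). Footprints called 6 of 12 genes of the glutathione group and 4 of 14 of the heme group higher, against 17.2% of all genes tested in footprints. Of the enzymes that break down peroxide and superoxide directly 4 of 12 were higher and 6 lower, against 39.4% and 31.1% of all genes. Sod1 changed by 0.45 and catalase, Cat, by 0.36, while the secreted dismutase Sod3 went from 18.2 and 20.6 to 8.16 and 8.15 CPM (log2 -1.25). Of 5 metallothionein and zinc transport genes 4 were higher and Slc39a10 lower (log2 -0.56), with Mt2 going from 81.4 and 88.8 to 259 and 278 CPM (log2 1.66).

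The regulators of the ISR rose in 13 of 13 genes (median 2.59). Atf4, the central transcription factor, went from 242 and 227 to 645 and 644 CPM (log2 1.46). Ddit3, which encodes CHOP, went from 19.6 and 19.6 through 54.9 and 46.9 CPM at 2 h to 126 and 118 CPM (log2 2.63), and Trib3, a pseudokinase that it induces, from 9.74 and 10.1 to 124 and 118 CPM (log2 3.61, SE 0.102). In each of these genes the 7 h libraries lay above both control libraries, as in 6260 of all 13256 genes. Atf3 had peaked earlier, with 287 and 289.6 CPM at 2 h and 49.6 and 60.9 CPM at 7 h, -2.39 log2 units from its 2 h level and 2.67 above the control. Fgf21, a secreted hormone whose promoter is printed above, remained scarce, at 0.124 and 0.105 CPM and then 1.46 and 0.633 CPM, with a wide error (log2 3.18, SE 0.619).

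The ISR genes of amino acid and folate metabolism rose in 17 of 17 cases, 15 of them by at least 1 log2 unit, with a median of 1.65 against 0.67 at 2 h and -0.0836 at 7 h of KCl. The steepest were Cbs and Cth, the enzymes that turn homocysteine into cysteine. Cbs was at 0.765 and 0.577 CPM in the control, lower at 2 h (0.476 and 0.325 CPM) and at 30.3 and 30.1 CPM at 7 h (log2 5.47, SE 0.1405). Cth went from 7.24 and 7.18 to 152 and 154 CPM (log2 4.41). Asns, asparagine synthetase, rose from 81.9 and 75.2 to 349 and 338 CPM (log2 2.13), and the serine and folate enzymes Psph, Mthfd2 and Shmt2 by 2.07, 1.84 and 1.65. Of 20 cytosolic aminoacyl-tRNA synthetases 16 rose and 2 fell (median 0.86). Gars, which charges glycine tRNA and whose promoter is printed above, went from 209 and 193 to 645 and 641 CPM (log2 1.68), while Qars fell from 135 and 119.9 to 94.02 and 91.8 CPM (log2 -0.46). Footprints called 11 of 12 ISR regulators, 12 of 17 metabolic genes and 6 of 20 synthetases higher, against 17.2% of all genes.

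The genes of the unfolded protein response of the endoplasmic reticulum were mostly lower. Of 19 such genes 5 were higher and 14 lower at 7 h (median -0.41), although 14 had been higher and 1 lower at 2 h, where 27.3% of all genes were higher and 26.5% lower. Hspa5, the chaperone BiP, stood at 1498 and 1367 CPM in the control, 2552 and 2502 CPM at 2 h and 1148 and 1302 CPM at 7 h (log2 -0.23). Xbp1, a transcription factor of the response, fell from 40.5 and 33.6 to 20.6 and 18.6 CPM (log2 -0.92), and Dnajb9 stayed above the control, at 27.9 and 34.2 CPM against 14.95 and 13.2 CPM (log2 1.13). Of 18 chaperone genes driven by HSF1 7 were higher and 6 lower (median 0.0626), close to the 39.4% and 31.1% of all genes. They ran from Dnajb1, an HSP40 co-chaperone (log2 0.96), to Hspa1b, an inducible HSP70, which went from 84.3 and 93.98 to 44.4 and 42.6 CPM (log2 -1.03). The footprints of Hspa1b went the opposite way, from 101 and 146 to 215 and 263 CPM (log2 0.96, adjusted p = 0.0151). Hspa1b and Hspa1a are near-identical copies whose reads the counting could split, so their values are uncertain, and Hspa1a was not called in RNA (adjusted p = 0.295) and was higher in footprints (log2 2.897).

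**Figure D3:**
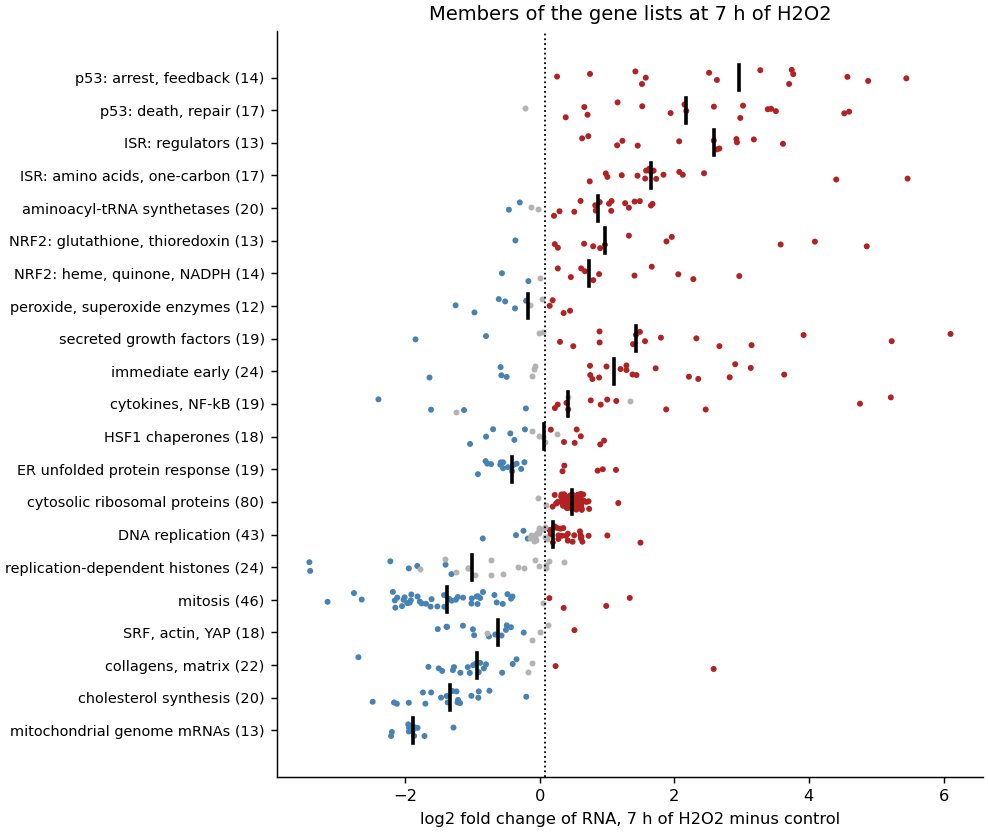
Log2 fold change of RNA at 7 h of H2O2 against control for the tested members of 21 gene lists (number in brackets), with 1 point per gene: red called higher, blue called lower, grey not called. Thick bars are list medians and the dotted line is the median of all genes tested (0.0753); the p53 and ISR lists lie to its right, and the mitosis, matrix, cholesterol and mitochondrial genome lists to its left.

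Immediate early genes, which are transcribed within minutes of a stimulus without new protein synthesis, were past their peak. At 7 h 17 of 24 were higher than control and 4 lower (median 1.098), against 22 and 1 at 2 h (median 2.35). In the direct comparison of 7 h with 2 h, in which 37.3% of all genes were higher and 36.1% lower, 20 of the 24 were lower and 4 higher. Nr4a1, an orphan nuclear receptor, was at 26.97 and 29.3 CPM in the control, 210.04 and 211 CPM at 2 h and 51.6 and 52.2 CPM at 7 h. Its relative Nr4a3 had dropped below the control by 7 h, at 1.73 and 1.78 CPM against 5.73 and 5.14 CPM (log2 -1.64). The 4 genes still climbing were Dusp6, Fosl1, Fos and Klf2. Dusp6, a phosphatase that turns off ERK, went from 4.34 and 5.01 through 31.5 and 30.00 to 54.7 and 60.9 CPM (log2 3.63), and Fosl1, the AP-1 subunit FRA1, from 29.4 and 34.3 through 217 and 223 to 278 and 281 CPM (log2 3.14).

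Cytokines and NF-kB targets gave 12 of 19 higher and 4 lower (median 0.42), against 39.4% and 31.1% of all genes. In the direct comparison with 2 h, 16 of the 19 were lower at 7 h, against 36.1% of all genes. Lif, a cytokine of the interleukin 6 family, stood at 13.3 and 17.4 CPM in the control, 985 and 953 CPM at 2 h and 368 and 460.1 CPM at 7 h. Icam1, a leukocyte adhesion molecule, was an exception to that course, with 1.24 and 1.23 CPM in the control, 5.202 and 5.62 CPM at 2 h and 47.1 and 45.1 CPM at 7 h (log2 5.22, SE 0.117). Ptgs2, cyclooxygenase 2, was above the control in RNA (129 and 137 to 632 and 840.1 CPM, log2 2.47) and not called in footprints (log2 0.0377, adjusted p = 0.925). The chemokines Cxcl5, Ccl7 and Cxcl1 had fallen below the control, with log2 changes of -2.39, -1.61 and -1.12. Cxcl5 stood at 155 and 139 CPM in the control and at 27.2 and 28.9 CPM at 7 h.

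Secreted growth factors were higher in 15 of 19 genes and lower in 2 (median 1.43). Gdf15, a stress hormone of the TGF-beta family, went from 0.103 and 0.105 CPM in the control through 1.14 and 1.39 CPM at 2 h to 7.16 and 7.71 CPM at 7 h, 68.7-fold (log2 6.103, SE 0.246). The EGF receptor ligand Areg rose from 1.18 and 1.21 to 43.3 and 46.4 CPM (log2 5.23). Pdgfa, a mitogen for fibroblasts, rose only after 2 h: it was at 13.2 and 15.3 CPM in the control, 13.01 and 13.95 CPM at 2 h (adjusted p = 0.502) and 121 and 131 CPM at 7 h (log2 3.15). Vegfa stood at 307 and 316 CPM at 2 h and 236 and 261 CPM at 7 h, against 38.4 and 39.6 CPM in the control. Angptl4 fell from 18.2 and 16.6 to 4.88 and 4.83 CPM (log2 -1.84).

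Genes of mitosis fell. Of 46 such genes 41 were lower, 30 by at least 1 log2 unit, and 4 higher (median -1.38), against medians of -0.38 at 2 h and 0.24 at 7 h of KCl. Plk1 (chr7:122159435-122169884), a kinase of mitotic entry, stood at 130.4 and 133 CPM in the control, 70.2 and 67.3 CPM at 2 h and 16.1 and 13.5 CPM at 7 h. All 7 h values lay below all others, an 8.87-fold fall from the control (log2 -3.15, SE 0.0918, adjusted p = 1.16e-12). Nusap1, a spindle protein, went from 109 and 100.1 to 14.7 and 16.4 CPM (log2 -2.76), Cenpf, a kinetochore protein, from 79.9 and 88.6 to 13.4 and 13.6 CPM (log2 -2.64), and Prc1, which bundles midzone microtubules, from 209.8 and 205 to 46.9 and 46.4 CPM (log2 -2.15). Plk1, Cenpf and Prc1 carry the CHR and CCAAT elements printed above. Cyclin B1 and its kinase fell less, Ccnb1 from 266 and 257 to 118 and 108 CPM (log2 -1.22) and Cdk1 from 184 and 166 to 98.8 and 96.7 CPM (log2 -0.84). Footprints gave 33 of 46 lower and 2 higher, read against 10.6% of all genes lower, with a median of -1.16.

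The 4 exceptions were Kif18b, Spc25, Pttg1 and Ccnf, and Cenpe was not called. Kif18b, a motor that shortens microtubules, went from 77.2 and 77.96 CPM down to 37.7 and 36.7 CPM at 2 h and up to 192 and 201 CPM at 7 h (log2 1.34 against control). Ccnf took a similar course, from 113 and 112 through 27.4 and 26.5 to 125 and 124 CPM, ending 0.14 above the control. Spc25, a subunit of the kinetochore complex NDC80, rose from 42.98 and 39.7 to 81.2 and 83.2 CPM (log2 0.99). Both Kif18b and Spc25 rose in footprints, by 2.12 and 1.600.

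DNA replication genes did not fall with those of mitosis. Of 43 members 24 were higher and 4 lower (median 0.197), after 7 higher and 21 lower at 2 h. Rrm2, a ribonucleotide reductase subunit, rose from 169.6 and 167 to 452 and 498 CPM (log2 1.499), E2f1 by 0.73 and Pcna, the replication clamp, by 0.22. Tk1, thymidine kinase, was the largest fall (142 and 141 to 80.6 and 76.9 CPM, log2 -0.84), and Mcm2 was not called (adjusted p = 0.148). Of 28 genes of break and crosslink repair 11 were higher and 5 lower, with the histone variant gene H2afx among the falls (log2 -0.96), and the share higher was close to that of all genes (39.4%). Replication-dependent histones, whose mRNAs mostly lack polyA tails and whose copies are near-identical, were low in all libraries, with 0 of 24 called higher and 7 lower, the steepest being Hist1h2be (0.6205 and 0.5503 to 0.09098 and 0 CPM). Their footprints, which need no polyA tail, were abundant and lower for 12 of 23 genes (median -1.05), against 10.6% of all genes. Hist1h2be went from 776 and 1188 to 315 and 379 footprint CPM. Among G1 regulators 5 of 15 were higher and 8 lower, against 39.4% and 31.1% of all genes. Rb1, the retinoblastoma protein, rose from 26.7 and 24.1 to 130.3 and 133 CPM (log2 2.37) and Ccnd1, cyclin D1, from 69.8 and 78.6 to 211 and 207 CPM (log2 1.496), while the inhibitors Cdkn2d and Cdkn1b fell, with log2 changes of -2.26 and -1.22. In the BCL2 family 5 of 12 were higher and 5 lower, near the shares of all genes (39.4% and 31.1%): Bcl2l1, which protects mitochondria, changed by 1.23 and the death factor Bmf by -3.48, while Hrk had 0 and 3 control counts and stood at 1.06 and 0.8704 CPM at 7 h.

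All 13 mRNAs of the mitochondrial genome fell (median -1.88). They made up 3.02% and 2.55% of counts in the control and 0.689% and 0.768% at 7 h, against 1.93% and 1.99% at 2 h. After KCl for 7 h the shares were 3.51% and 3.20%. The 7 h libraries thus held the smallest shares of the 4 conditions. COX1, cytochrome oxidase subunit 1, went from 7100.00 and 5924 CPM to 1609.5 and 1761 CPM, 3.86-fold lower (log2 -1.95, SE 0.0857), with falls from -2.21 for ND3 to -1.28 for ATP8. The nuclear genes of the same complexes had no such shift: of 76 respiratory chain genes 18 were higher and 23 lower (median -0.0595). The shares of all genes were 39.4% and 31.1%. Values ran from Ndufb6 (log2 1.22) to Atp5s, whose 7 h libraries differed widely (0.121 and 1.78 CPM, log2 -1.54) and which DESeq2 did not call. Footprints on the mitochondrial mRNAs were lower for 12 of 13 genes (median -2.26), against 10.6% of all genes, with COX1 at 602 and 451 and then 76.6 and 101 footprint CPM.

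Cytosolic ribosomal protein mRNAs rose by a small and even amount, with 78 of 80 called higher (median 0.48), from 4.12% and 4.17% to 5.61% and 5.43% of counts. Their footprints went the other way: 33 of 79 were lower and 1 higher (median -0.61), against 10.6% and 17.2% of all genes. Rplp0, a stalk protein of the large subunit, stood at 1398 and 1336 and then 1957 and 1910.00 CPM in RNA (log2 0.500) and at 1018 and 1570.1 and then 593 and 615 CPM in footprints (log2 -1.099, adjusted p = 0.00401). Rps6, of the small subunit, showed the same opposition, with 0.45 in RNA and -0.67 in footprints. The elongation factors Eef1a1 and Eef2, whose mRNAs carry the same 5′ terminal tract of pyrimidines, changed by 0.37 and 0.399 in RNA and by -0.69 and -0.63 in footprints. The exception was Rps27l, a paralog of Rps27, which rose in both (RNA 95.8 and 98.04 to 220.3 and 216 CPM, log2 1.17; footprints log2 1.23). Mitochondrial ribosomal proteins were mixed, with 25 of 75 higher and 17 lower, led by Mrps31 (log2 1.35). Their lowest value, Mrpl58 (log2 -1.098), moved to -0.017 when the row of its older symbol was added. Proteasome subunits gave 14 of 38 higher and 6 lower, where the called genes ran from the inducible subunit Psmb9 (log2 1.64) to Psmb10 (log2 -0.37), whose call was lost without 7 h replicate 2. The shares of higher genes in both groups were below or near the 39.4% of all genes.

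**Figure D4:**
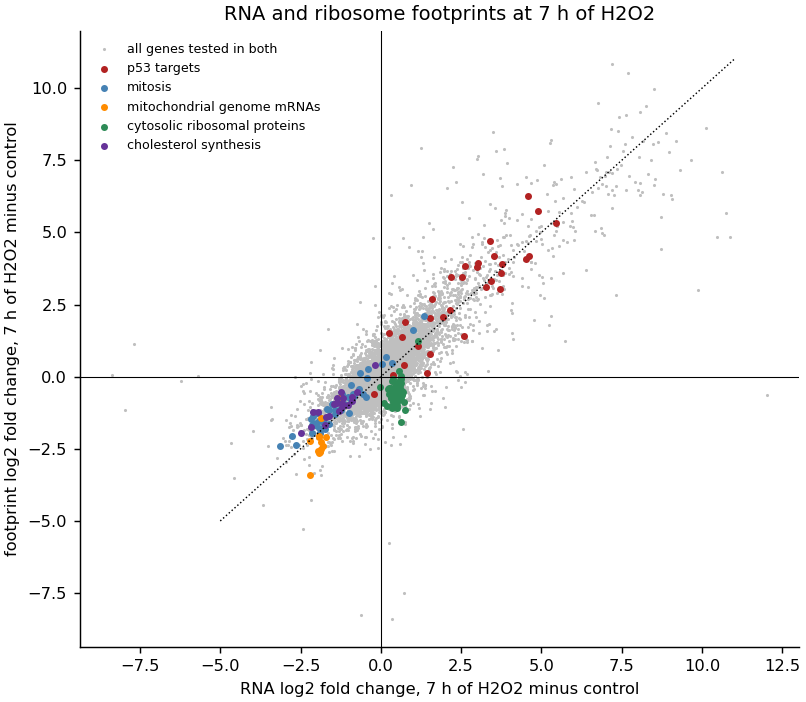
Log2 fold change at 7 h of H2O2 against control in ribosome footprints (vertical axis) and in RNA (horizontal axis), with 1 point per gene tested in both and 5 gene groups coloured; the dotted line marks equal change. Ribosomal proteins lie right of zero in RNA and mostly below zero in footprints, while p53 targets, mitosis genes and mitochondrial genome mRNAs lie near the dotted line.

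Across all genes, footprints mostly followed the large RNA changes. Of 2172 genes that rose by at least 1 log2 unit 1259 were tested in footprints, and 1026 of these (81.5%) were called higher, 2 lower and 231 not called. Of 919 genes that fell as far 688 were tested, with 375 (54.5%) called lower, 2 higher and 311 not called. The footprint libraries were much smaller than those of RNA, with 3925402 and 3603755 counts in the control and 3171340 and 3326692 at 7 h. Footprint calls without 7 h replicate 1 or 2 numbered 1795 and 1681, against 2925 with all libraries.

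Cholesterol synthesis and uptake genes, which SREBP2 controls, fell in 20 of 20 cases (median -1.33), with medians of -0.17 at 2 h and 0.32 at 7 h of KCl. Hmgcs1, HMG-CoA synthase, went from 541 and 519 CPM to 94.9 and 95.3 CPM (log2 -2.48, SE 0.0648). Insig1, the sterol sensor that retains SREBPs, went from 240.1 and 232 to 54.7 and 54.04 CPM (log2 -2.12). Srebf2 itself fell from 577 and 585 to 251 and 251 CPM (log2 -1.21). The smallest fall was that of Dhcr7 (log2 -0.197). Footprints were lower for 15 of 20 genes (median -0.98), against 10.6% of all genes.

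Genes of the fibroblast matrix and cytoskeleton fell too. Of 22 collagen and matrix genes 18 were lower and 2 higher (median -0.92), and their share of counts went from 2.45% and 2.46% to 1.14% and 1.16%. Thbs1, thrombospondin 1, went from 1890.00 and 2001 to 293 and 309.9 CPM (log2 -2.69) and Col1a1, a chain of type I collagen, from 5534 and 5921 to 1986 and 2072 CPM (log2 -1.498). The exceptions were Eln, elastin (0.207 and 0.262 to 1.36 and 1.46 CPM, log2 2.59), and Tnc (log2 0.24). Matrix footprints were called lower for 5 of 20 genes, against 10.6% of all genes, with Thbs1 at -2.67 and Col1a1 at -0.61 on the log2 scale. The fibroblast marker Pdgfrb, a PDGF receptor, fell from 176 and 161 to 27.4 and 29.3 CPM (log2 -2.57).

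Among targets of SRF and YAP, which link actin tension to transcription, 13 of 18 were lower and 1 higher, against 31.1% and 39.4% of all genes. Cnn2, calponin 2, went from 361 and 372 to 126 and 131 CPM (log2 -1.51) and Acta2, smooth muscle actin, changed by -0.99. Ctgf, a matricellular YAP target, had risen from 61.6 and 72.4 CPM to 580.4 and 629 CPM at 2 h and was at 54.1 and 59.7 CPM at 7 h (log2 -0.24 against control). Cyr61, the member still higher at 7 h (log2 0.52), had been at 1282 and 1291 CPM at 2 h. Of 13 TGF-beta and BMP feedback genes 6 were higher and 6 lower, against 39.4% and 31.1% of all genes. They ran from Id4 (log2 3.94) to the ligand Bmp4 (log2 -2.18). Tgfb3 fell from 105 and 101 to 25.4 and 27.1 CPM (log2 -1.97).

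The smaller groups are read against the 39.4% of all genes called higher and 31.1% called lower, and the shares higher of the clock, autophagy and splicing groups were near the former. Of 16 clock genes 6 were higher and 10 lower, with Npas2, a partner of BMAL1, at 2.303 and the PAR bZIP factors Hlf and Dbp at -3.301 and -1.38. Among 16 glycolysis genes 3 were higher and 11 lower: the glucose transporter Slc2a1 rose from 107 and 111 to 215 and 235 CPM (log2 1.04), and the lactate exporter Slc16a3 fell from 14.95 and 16.7 to 5.19 and 4.27 CPM (log2 -1.73). Of 20 autophagy and lysosome genes 9 were higher and 3 lower. Ulk1, the kinase that starts autophagy, rose from 65.9 and 66.1 to 328 and 331 CPM (log2 2.32; footprints 3.66), the receptor Sqstm1 from 442 and 420.3 to 1274 and 1353 CPM (log2 1.61), and Tfeb, a lysosome regulator, fell (log2 -1.18). Splicing kinases and SR proteins were higher in 7 of 16 and lower in 3, from Clk3 (log2 1.01) to Srsf5 (log2 -0.48). Of 10 nuclear noncoding RNAs and snoRNA hosts 7 were higher and 0 lower, led by Snhg15 (3.45 and 4.43 to 27.96 and 27.8 CPM, log2 2.83), with Neat1 (adjusted p = 0.0564) and Malat1 (adjusted p = 0.127) not called. Genes named Zfp with a number, which encode zinc finger proteins, were higher in 160 of 353 and lower in 55 (median 0.25), after 61 higher and 191 lower at 2 h (median -0.400). The called genes ran from Zfp750, described above, to Zfp467 (2.83 and 2.99 to 0.576 and 0.317 CPM, log2 -2.64).

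The 15 largest falls among genes that met the same limits of average level and overlap were led by Pif1 (chr9:65587150-65595967), a DNA helicase. It stood at 34.7 and 37.8 CPM in the control, 8.85 and 10.5 CPM at 2 h and 2.55 and 1.98 CPM at 7 h, 15.8-fold lower (log2 -3.98, SE 0.127, adjusted p = 2.74e-12). Bmf, a BH3-only death factor, had reached its low level by 2 h, with 15.8 and 16.3 CPM in the control, 1.903 and 1.27 CPM at 2 h and 1.09 and 1.86 CPM at 7 h. Slc24a3, a sodium and calcium exchanger, kept its control level at 2 h (57.02 and 56.8 and 56.4 and 58.7 CPM) and fell to 7.61 and 6.96 CPM afterwards (log2 -2.96). The Wnt receptor Fzd2 fell from 121 and 129.5 to 16.7 and 15.6 CPM (log2 -2.95) and the guidance factor Sema3a from 172 and 167 to 22.4 and 25.1 CPM (log2 -2.84), the latter from a 2 h level of 181 and 211 CPM. Emilin1, an elastic fibre protein, had a change of -2.86, and Wisp2, a relative of Ctgf, of -3.06. Wisp2 was also low after 7 h of KCl, at 33.05 and 44.8 CPM against 159 and 142 CPM in the control. The other members were Mrgprf, Hlf, Cables1, Plk1, Cyp39a1, Itgb8, Prr11 and Rnf150, with values from -3.400 to -2.81. Among the most abundant genes, Eef1a1, Hsp90ab1, Eef2, Il1rl1 and Ptma were the highest in the control that rose, by 0.17 to 0.57, and COX1, Col1a1, ATP6, Fn1 and Actb the highest that fell, with Fn1 at -0.34 and Actb at -0.66. The calls of Hsp90ab1 and Il1rl1 were lost on the log2 TPM scale.

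How 7 h differed from 2 h was tested directly. Of 2172 genes that had risen by at least 1 log2 unit at 7 h, 1675 were higher than at 2 h, 272 were lower than at 2 h, and 225 did not pass the test between the times. For the 919 falls these numbers were 846 lower than at 2 h, 14 higher and 59 without a call. Of all genes tested, 37.3% were higher at 7 h than at 2 h and 36.1% lower. Both sets were chosen by the same 7 h libraries that were then set against 2 h. An excess in the direction of the choice was therefore built in, and these counts only describe the sets. Among the largest gains over 2 h were those of Zfp750, Sec14l5, Tbc1d8 and Ddit4l, by 6.06 to 7.86 log2 units. Among the largest drops from 2 h were those of Edn1, Rnf225, Ctgf and Cxcl1. Edn1, the vasoconstrictor endothelin 1, ended below its control, at 0.698 and 0.712 CPM against 1.92 and 2.33 CPM and 8.22 and 8.31 CPM at 2 h.

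**Figure D5:**
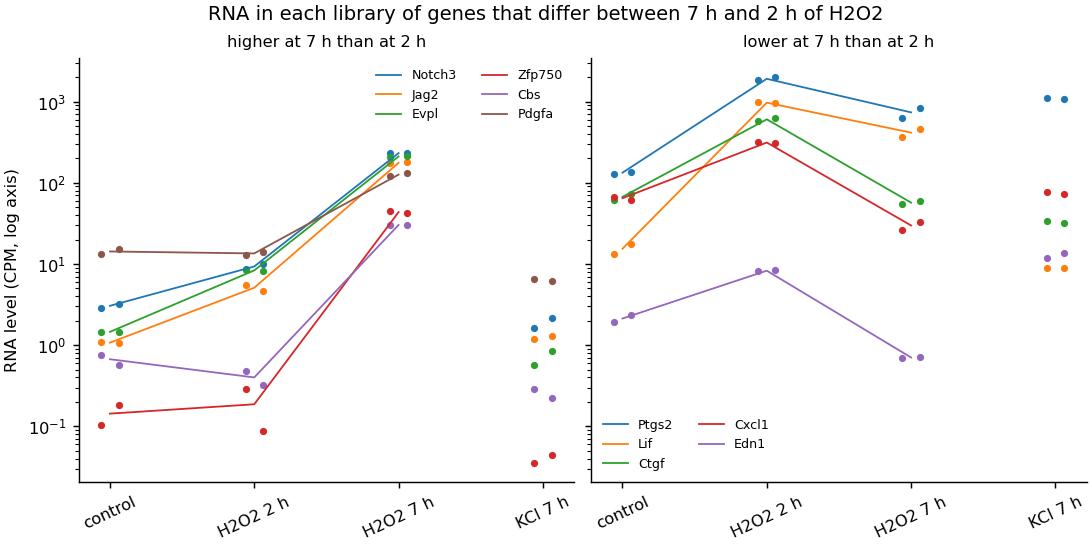
RNA level in CPM on a log axis in each library of the control, H2O2 for 2 h, H2O2 for 7 h and KCl for 7 h; points are libraries and lines join the means of the control and H2O2 groups. Left, genes higher at 7 h than at 2 h, such as Cbs and Zfp750, which were near or below their control level at 2 h; right, genes lower at 7 h than at 2 h, of which Edn1 and Cxcl1 ended below the control and Lif and Ptgs2 above it.

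Against KCl for the same 7 h, an osmotic stress, 5437 genes were higher (41.0%) and 4962 lower (37.4%). Among the genes highest in H2O2 relative to KCl were Zfp750, Evpl, Sec14l5 and Matn4, by 7.903 to 9.96 log2 units, and those lowest were Slc1a3, Prss35, Gper1, Akr1b3 and Stc1. Akr1b3, aldose reductase, which makes the osmolyte sorbitol, stood at 121 and 121 CPM in the control, 80.9 and 80.9 CPM at 7 h of H2O2 and 2639.5 and 2649.9 CPM at 7 h of KCl. Slc1a3, a glutamate transporter, moved apart in both directions, with 39.3 and 34.3 CPM in the control, 5.97 and 6.84 CPM in H2O2 and 351 and 379 CPM in KCl. Stc1, stanniocalcin 1, was at 1.51 and 2.15, 3.12 and 3.600 and 100.4 and 109 CPM in the same order. Most of the difference in Akr1b3 and Stc1 thus lay on the side of KCl, and that in Zfp750 and Evpl on the side of H2O2.

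The series was built to study readthrough, in which RNA polymerase carries on beyond the 3′ end of a gene, making a downstream-of-gene transcript (DoG), and may enter the next gene (read-in). By the authors' calls over 6399 pairs of neighbouring genes, read-in was called for 37 and 36 pairs at 7 h, against 36 and 35 in the control and 161 and 156 at 2 h. DoGs were called for 1243 and 1359 pairs at 7 h, fewer than the 1551 and 1615 in the control and the 2202 and 2286 at 2 h. Of 90 pairs with read-in in both 2 h libraries and no control library, 7 were called in either 7 h library. At 7 h 3 pairs were gained in both libraries and absent from both control libraries, and 6 were lost. Calls of this kind follow a threshold the sources used here do not give, and no test was made on them.

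The 3 gained pairs were Ltb4r2 to Ltb4r1, Eml3 to Mta2 and Pltp to Neurl2. Neurl2 rose from 4.28 and 4.14 to 12.5 and 12.9 CPM in RNA (log2 1.59) and was not called in footprints (log2 -0.501, adjusted p = 0.567). Its upstream neighbour Pltp, a phospholipid transfer protein looked up for this pair, rose from 30.01 and 26.2 to 377 and 365 CPM and by 4.56 log2 units in footprints. Ltb4r1, a leukotriene receptor, had 9 and 4 counts in the control and stood at 20.3 and 21.9 CPM at 7 h (log2 7.09), while Mta2 changed by 0.17 (adjusted p = 0.0176), a call lost on the log2 TPM scale. The receptor genes Ltb4r1 and Ltb4r2 are neighbours on the genome and may share reads. The authors' read-in estimate went from 0.0726 and 0.154 to 1.20 and 1.32 for Neurl2. For Ltb4r1 it was 1.17 and 0.707 in the control and 1.17 and 1.69 at 7 h, and for Mta2 it was 0.0119 and 0.0112 and then 0.0197 and 0.0363. The estimate thus did not separate the groups for Ltb4r1 and remained low for Mta2. Genes ever called as reached by read-in made up 2.37% of all genes tested, 1.98% of the rises of at least 1 log2 unit (43 genes) and 1.63% of the falls (15 genes). Only the downstream gene of a pair could be called, which 5105 of the genes tested, 821 of the rises and 330 of the falls were.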

How the data were processed

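RNA libraries (polyA-selected, NEB E7760 kit, per the labels' protocols) and ribosome footprint libraries of NIH3T3 cells were analysed from the authors' tables. Per the submitters' processing notes, STAR, RSEM and Bowtie and the build mm10 were used, and the sources used here do not say which tool made which table. The expected counts per gene that the authors deposited were whole numbers and used as they were, and TPM values for the same libraries were deposited too. The deposited read-in estimate is a ratio per pair of neighbouring genes, and DoG and read-in calls were deposited as true or false. The tables' gene names, a symbol written as a doubled ID, were reduced to the symbol. Of 20430 symbols 19885 were in the RefSeq table of GRCm38.p6, which is build mm10 with patches and gave positions and promoter windows. Not used were 12 columns whose names no labelled sample shares.

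RNA was fitted with edgeR 4.0.16 (R 4.3.3), quasi-likelihood F test, TMM, filterByExpr, over 10 libraries in 5 groups (control, 2 h and 7 h of H2O2, 2 h and 7 h of KCl), with Benjamini-Hochberg adjustment over all genes tested and a threshold of 0.05. The 10 footprint libraries were fitted apart (3171340 to 3925402 counts in the control and 7 h libraries). SEs are the log2 fold change over the square root of F. Alternatives were DESeq2 1.42.0, limma 3.58.1 on log2 TPM with pseudocounts of 1 and 0.1, other scalings and filters, rows of synonymous symbols summed (99 RefSeq genes had more than 1 row), each replicate left out and a replicate block. The fits were also run on simulated counts in which few genes changed, unlike in these data. That run therefore cannot check the error rates or the scaling here. An exact permutation test of 2 against 2 cannot go below 0.333 and was not used.

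Genes were named by rule: the 15 largest rises and falls among called genes whose log2 CPM averaged at least 3 and whose groups did not overlap, members of the gene lists, the 5 largest differences in each direction from 2 h of H2O2 and from 7 h of KCl, the 5 most abundant called genes in each direction, and the downstream genes of read-in pairs gained at 7 h. Notch1, Hes1, Ltb4r2, Eml3 and Pltp were added after their values or those of their partners were seen. The comparison, its gene lists and the named-gene rule were chosen with earlier results of these data known. Contrasts with the control share its 2 libraries. A few genes that the rule names are not reported here.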

Additional observations from a re-analysis of the deposited data

Results flagged for a closer look

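Among the named genes and list members, 8 moved in opposite directions at 2 h and at 7 h of H2O2, with both changes from the control and the difference between the times called by edgeR (Benjamini-Hochberg adjusted quasi-likelihood test) and a change of at least 1 log2 unit on each side. Lower at 2 h and higher at 7 h were Zfp760, Zfp442, Kif18b, Zfp958 and Bhlhe41, which differed between 7 h and 2 h by 3.34, 2.89, 2.40, 2.33 and 2.18 log2 units. Zfp760 stood at 12.9 and 11.6 CPM in the control, 3.299 and 2.66 CPM at 2 h and 29.1 and 31.1 CPM at 7 h. The zinc finger genes Zfp442 (11.1 and 10.6, 2.95 and 3.31 and 22.2 and 24.4 CPM in the same order) and Zfp958 (9.41 and 7.89, 3.901 and 3.64 and 19.3 and 18.5 CPM) took the same course. Bhlhe41, a repressor in the circadian clock, stood at 12.5 and 13.7 CPM, 6.76 and 6.18 CPM and 27.99 and 30.7 CPM. Higher at 2 h and lower at 7 h were Edn1, Cxcl1 and Ccl7, with differences of -3.55, -3.40 and -2.91. Ccl7, a chemokine, went from 44.7 and 38.9 CPM to 111 and 94.1 CPM and then to 13.3 and 14.1 CPM, and Cxcl1 from 67.2 and 61.8 CPM to 315 and 311 CPM and then to 26.4 and 33.2 CPM. In all 8 genes the libraries of the 3 groups did not overlap. The choice by calls and sizes made that likely from the start, so it is no further evidence. Between 7 h and control alone, both 7 h libraries lay above both control libraries in 6260 of all 13256 genes and below them in 5155.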

How the results depend on the processing

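The number of genes called between 7 h of H2O2 and control was 9347, and it was 8694 with DESeq2 (4603 higher, 4091 lower), 9377 with total counts only (4891 and 4486), 9598 with only the groups compared (4867 and 4731), 9021 on log2 TPM plus 1 (4482 and 4539) and 8434 to 8647 with any 1 replicate left out. A size of at least 1 log2 unit in addition left 3091 genes against control (2172 higher, 919 lower), 3517 against 2 h (1891 and 1626), 4491 against KCl (2596 and 1895) and 543 lower in footprints. Footprint calls depended on each library: with any 1 left out they numbered 1681 to 2245, with 1114 to 1342 higher and 567 to 903 lower. Without 7 h replicate 1 or 2 they were 1795 (1193 and 602) and 1681 (1114 and 567), and without control replicate 2 the lower calls were 640. On log2 TPM plus 0.1 and plus 1 footprints had 609 and 640 lower calls, and on the latter scale 74.3% of calls were higher, against 61.9% in edgeR. Read-in pairs gained at 7 h numbered 3, 18 when a call in at least 1 7 h library sufficed, and 6 and 5 without control replicate 1 or 2. DoG pairs gained were 86, and 720, 150 and 160 under those settings. Of the gene lists, which of the directions held more calls turned for HSF1 chaperones (6 higher on both log2 TPM scales, with total counts only and without 7 h replicate 1), for mitochondrial ribosomal proteins (20 higher on both log2 TPM scales, 16 to 23 with 1 replicate left out, lowest without 7 h replicate 1), for the proteasome (9 higher on both log2 TPM scales, 6 to 13 with 1 replicate left out, lowest without 7 h replicate 1) and for TGF-beta and BMP genes (6 higher with only the groups compared). Further list counts that moved were the proteasome without control replicate 2 (9 higher), the respiratory chain (35 lower on both log2 TPM scales) and histones (11 lower on log2 TPM plus 1). The cause was not tested for any of these. Of 1657 values of named genes under other settings 29 lost their call and 0 changed sign, those of Hsp90ab1, Il1rl1, Mta2, Mrpl58, Atp5s and Psmb10.

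In the RNA fit replicate numbers did not pair the samples: deviations of same-numbered libraries correlated between groups at -0.053 to 0.054. Over the groups of the footprint fit they correlated at -0.384 to 0.417 (0.213 between control and 7 h of H2O2). Every footprint value with H2O2 for 2 h was negative, and every other was positive, at 0.198 to 0.417. A factor shared by same-numbered footprint libraries was not tested. With a replicate block the calls numbered 9435 against control (5249 higher, 4186 lower), 9819 against 2 h, 10459 against KCl and 3030 in footprints (1848 higher, 1182 lower), and no list count moved by over 1.5 times. Depth limits the genes with few or no control counts and all footprint calls.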
